A study of Mus musculus with 6 samples.

Results

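Of the 120876 distinct transcript-structure events in the 6 tables, 1759 (1.46%) carried no reference gene, and these events and the loci that hold them are described here. Members were taken as the events whose reference gene field was empty. An event listed more than once in a table was counted once, and an event that a library did not list was set to 0. The members fell into 535 of 13107 assembled loci, and 0 loci mixed members with events that carried a reference gene. An assembled locus is a group of overlapping transcripts to which the authors' software gave 1 identifier, and an event is 1 feature of such a transcript, such as a start, an end or a skipped exon.

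The study set thymocytes of Hspa9 cKO mice at the DN3 stage against those of WT mice, asking what loss of GRP75 does to gene expression. DN3 cells are early T cell precursors, sorted here as cells that lacked lineage markers, CD4, CD8 and CD44 and carried CD25. All mice were 5 weeks old and untreated, with 3 libraries per genotype. Hspa9 encodes GRP75, the HSP70 chaperone of the mitochondrial matrix. No source used here gives the Cre driver of the cKO. Nor do the labels tie a library to 1 animal, so p-values cover only the spread from library to library, which could be technical. Values are FPKM, fragments scaled by the length of the transcript and the size of the library. No counts are in the tables, which leaves the depth unknown.

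A locus can lack a reference gene for several reasons that are known in general. Noncoding transcripts often begin beside the start of a coding gene and run away from it on the opposite strand, and many lie between genes. A reference assembly also holds patch scaffolds, which are corrected or alternative versions of a stretch of a chromosome, and haplotype scaffolds from other inbred strains. Genes on such scaffolds are near-identical copies of genes on the chromosome, and reads from them match both places.

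The sequences below are the stretches before the RefSeq starts of the genes at which the results turn, from the RefSeq promoter table of build GRCm38.p6. RefSeq starts were at hand for the chromosome copies, so for Ranbp1, Gstp3 and Nrbf2 the stretch is that of the chromosome and not of the patch. Rras2 and Tnfrsf8 are shown because a locus without a reference gene started at exactly their RefSeq start, and the stretches run 250 bases up to that start on the minus strand, at chr7:114117782-114118031 and chr4:145315165-145315414. Gstp3 (chr19:4059448-4059697) and Nrbf2 (chr10:67285282-67285531), also minus strand, are shown because their patch copies changed. The patch copy of Gstp3 has the chromosome's own coordinates, and its start event that changed spans 4059424 to 4059847. By position, the printed Gstp3 stretch thus lies within that event and is not the stretch before its start. Gm38561 and Zrsr2 start 74 bases apart on opposite strands (chrX:163958667-163958740, plus strand), and Trmt2a and Ranbp1 start 188 bases apart in the same arrangement (chr16:18248695-18248882, plus strand), so for each pair the bases between the starts are printed. Capitals mark matches to the motifs named after the sequences.
Rras2: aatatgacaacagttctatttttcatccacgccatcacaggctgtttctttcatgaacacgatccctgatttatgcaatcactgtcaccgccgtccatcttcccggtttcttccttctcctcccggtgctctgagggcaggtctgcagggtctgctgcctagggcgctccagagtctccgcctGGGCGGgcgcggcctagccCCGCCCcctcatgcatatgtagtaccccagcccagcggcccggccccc
Tnfrsf8: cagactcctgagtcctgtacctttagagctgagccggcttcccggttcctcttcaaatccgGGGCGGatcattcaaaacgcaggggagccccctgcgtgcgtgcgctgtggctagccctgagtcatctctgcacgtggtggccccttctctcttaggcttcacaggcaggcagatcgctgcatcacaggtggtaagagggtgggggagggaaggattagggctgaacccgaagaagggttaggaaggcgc
Gstp3: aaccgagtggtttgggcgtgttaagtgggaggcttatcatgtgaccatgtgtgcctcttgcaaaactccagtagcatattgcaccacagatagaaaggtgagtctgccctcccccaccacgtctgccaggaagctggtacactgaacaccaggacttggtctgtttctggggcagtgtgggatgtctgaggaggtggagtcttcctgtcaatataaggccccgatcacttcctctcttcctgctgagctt
Nrbf2: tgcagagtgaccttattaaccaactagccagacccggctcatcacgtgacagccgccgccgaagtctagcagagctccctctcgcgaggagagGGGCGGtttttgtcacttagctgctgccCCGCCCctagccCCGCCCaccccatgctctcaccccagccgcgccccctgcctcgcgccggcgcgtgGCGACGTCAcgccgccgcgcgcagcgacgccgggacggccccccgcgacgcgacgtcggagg
Gm38561-Zrsr2: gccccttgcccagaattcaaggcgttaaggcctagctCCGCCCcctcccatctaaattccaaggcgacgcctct
Trmt2a-Ranbp1: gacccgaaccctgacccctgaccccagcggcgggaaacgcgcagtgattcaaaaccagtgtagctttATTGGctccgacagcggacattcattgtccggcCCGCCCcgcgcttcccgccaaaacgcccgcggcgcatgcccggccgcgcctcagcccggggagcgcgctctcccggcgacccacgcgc

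Motifs were searched on both strands, and 0 matches overlapped another. The GC box GGGCGG was in 3 of the 4 stretches of 250 bases (Rras2, Tnfrsf8 and Nrbf2, but not Gstp3) and in 32.7% of 32851 RefSeq promoters over the same length. It was also in the Gm38561-Zrsr2 stretch (21.3% of promoters over 74 bases) and in the Trmt2a-Ranbp1 stretch (30.6% over 188 bases). The CCAAT box CCAAT was found between Trmt2a and Ranbp1 (28.2% of promoters over 188 bases) and in none of the others. The antioxidant response element TGACNNNGC was found before Nrbf2 (10.2% of promoters over 250 bases). The TATA box TATAAA (12.4%), the ETS motif CCGGAAG (6.91%) and the cyclic AMP response element TGACGTCA (1.55%) were in 0 of the 6 stretches, with shares given over 250 bases. A match is a description of the letters and no evidence that a factor binds.

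The loci without a reference gene were of 2 main kinds. On the chromosomes lay 410 loci with 1242 events, among 12562 loci with a reference gene. On patch or strain haplotype scaffolds lay 118 loci with 503 events, and 0 loci with a reference gene lay there. The other 7 loci, with 14 events, were on unplaced scaffolds. Of the member loci on chromosomes, 77.1% were assigned to the plus strand, against 54.7% of the loci with a reference gene. No source used here says whether strand was used in the counting, so reads of overlapping genes on opposite strands cannot be told apart.

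Most member events were starts (664) and ends (604) of transcripts, followed by included (89) and skipped (76) exons, alternative exon ends (74), and spliced (57) and retained (52) introns. Members made up 2.42% of all start events and 3.77% of all end events, but 0.707% of included and 0.688% of skipped exons. A locus held between 1 and 33 events, with a median of 2. Among the chromosomes, 17 held the most member events (121), followed by 2 (119) and 5 (113). Chromosome 18 had the highest share of its own events without a reference gene (2.49%, 71 events) and chromosome 9 the lowest (0.297%, 21 events).

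Members were low and irregularly listed. The median of their mean FPKM was 0.204, against 0.973 for the events with a reference gene. Of the members, 50.4% were listed in 1 library only and 14.8% in all 6, against 17.8% and 58.1% of the other events. The chromosome members were the sparser kind, with 58% in 1 library and a median of 0.14 FPKM. On patches and haplotypes 31.6% were in 1 library and the median was 0.986 FPKM.

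Against the GENCODE M21 annotation, 417 loci lay on annotated sequence. Of these, 193 were farther than 5000 bases from any gene, 180 were within 5000 bases, 27 overlapped a gene on the same strand and 17 overlapped one on the opposite strand only. The nearest gene was protein coding for 224, long noncoding for 89 and a pseudogene for 63. Loci that overlapped a gene on the same strand were the highest, with a median of 1.39 FPKM of summed starts, against 0.103 FPKM within 5000 bases and 0.128 FPKM farther away. A start of the RefSeq annotation lay within 100 bases of a member's start at 47 loci. The span of a RefSeq gene, on either strand, was overlapped by 228 of the 417 loci.

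At 20 loci the members shared an exon edge with an annotated gene, and for all 20 that gene was listed nowhere else in the tables. These loci therefore hold the only values for several protein-coding genes. Kat14, a subunit of a histone acetyltransferase complex, had 21 of its locus's 24 edges matched. Fam173b had 10 of 12, B4galt5, a galactosyltransferase, 7 of 11, Tnfrsf8 7 of 9, N6amt1, a methyltransferase, 5 of 8, Rras2 4 of 5 and Ebna1bp2, a nucleolar protein of ribosome assembly, 3 of 4.

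Next, the number of member events listed was compared between the genotypes. The WT libraries listed 660, 678 and 650 members and the Hspa9 cKO libraries 793, 857 and 785. Every cKO library listed more than every WT library, a difference of 149 events (662.7 ± 14.2 against 811.7 ± 39.5, SD, n = 3 each; exact two-sided permutation test, p = 0.1, the smallest that 3 against 3 can give). The difference lay on the chromosomes, where the WT libraries listed 399, 380 and 370 members and the cKO libraries 498, 572 and 493 (exact permutation p = 0.1). On patches and haplotypes the values were 255, 291 and 274 in WT and 293, 279 and 282 in cKO, and the groups overlapped (exact permutation p = 0.4). More events with a reference gene were also listed in cKO, but members rose as a share of all listed events, from 0.7492% ± 0.0175 to 0.894% ± 0.042 (SD, n = 3; exact permutation p = 0.1).

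Of all members, 390 were listed in WT libraries only and 616 in cKO libraries only. Most of these were in a single library, with 133, 126 and 104 listed in 1 WT library alone and 158, 195 and 170 in 1 cKO library alone. Listed in all 3 cKO libraries and no WT library were 20 events, against 5 in all 3 WT libraries and no cKO library. These were 1.14% and 0.284% of the members, and the same counts over the events with a reference gene were 0.691% and 0.345%. Because an event below the level at which the authors' software reported it is not listed, absence of an event does not show absence of its RNA.

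The FPKM of member starts showed the same split by kind of sequence. On the chromosomes it summed to 358.5, 361.8 and 410.1 in WT and to 496.4, 517.9 and 484 in cKO, so that the lowest cKO library was above the highest WT library (376.8 ± 28.9 against 499.5 ± 17.2, SD, n = 3 each; exact permutation p = 0.1). Of 408 chromosome loci with starts, 278 had the higher mean in cKO and 130 the higher mean in WT. The share with the higher mean in cKO was 68.1%, against 57.3% of 12128 chromosome loci with a reference gene. A pair of loci, XLOC_026710 with 24.8 FPKM and the Rras2 locus with 19.1 FPKM, made up 43.9 of the summed difference of 123 FPKM. On patches and haplotypes the sum was 754.5, 747.5 and 779.7 in WT and 646.9, 721.4 and 705.8 in cKO, lower in every cKO library (760.6 ± 16.9 against 691.4 ± 39.3; exact permutation p = 0.1). The Ranbp1 copy alone fell by 60.3 of the 69.2 FPKM. Without it the patch sums overlapped, at 618.7, 617.6 and 635.8 in WT and 575.3, 644.1 and 626.1 in cKO (exact permutation p = 0.9). As a share of all start FPKM, patch members also overlapped (0.2881% ± 0.00296 against 0.2771% ± 0.0152; exact permutation p = 0.3), while chromosome members were apart (0.1426% ± 0.00704 against 0.2002% ± 0.00856; exact permutation p = 0.1).

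Members together held 0.431%, 0.4394% and 0.443% of all start FPKM in WT and 0.4684%, 0.5097% and 0.4817% in cKO, with the groups apart (0.4378% ± 0.00615 against 0.4866% ± 0.0211, SD, n = 3; exact permutation p = 0.1). The members' summed start FPKM itself overlapped between the groups (1156 ± 45.8 against 1214 ± 51.1; exact permutation p = 0.2). Counted from ends, the share was 0.4798% ± 0.0138 in WT and 0.4925% ± 0.0194 in cKO, and the groups overlapped (exact permutation p = 0.4).

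**Figure D1:**
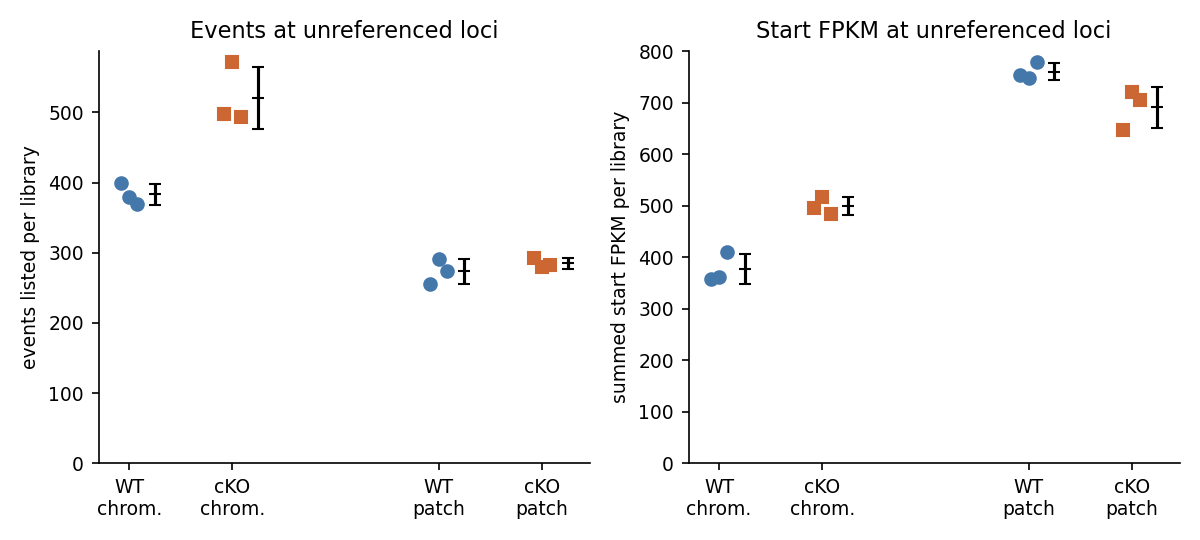
Member events listed per library (left) and summed start FPKM of members per library (right), for loci on chromosomes and on patches or strain haplotypes; circles are WT libraries, squares Hspa9 cKO libraries, and bars mean ± SD (n = 3). On chromosomes all cKO libraries lie above all WT libraries in both panels, and on patches the start FPKM is lower in every cKO library, mostly through Ranbp1, while the numbers of events overlap.

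Of 11 DN3 markers 10 were listed, all but Rag1, and they summed to 992 to 1230 FPKM in WT and 1330 to 1490 in cKO. The targeted gene had overlapping summed starts (116.1 ± 9.27 against 116.8 ± 6.91 FPKM, SD, n = 3), while an event that includes several of its internal exons was 106.3 ± 2.25 FPKM in WT and 22.3 ± 4.78 in cKO. The 6 listed markers of later thymocytes, of 6, summed to 31 to 32.7 FPKM in WT and 24.9 to 27.1 in cKO. Summed erythroid markers (5 of 6 listed) ranged from 75.7 to 108 FPKM in WT and from 53.3 to 70.8 in cKO. The 1 listed B cell marker of 6, Cd79b, was at 9.75 to 12.6 in WT and 15.3 to 18.3 in cKO, with Cd79a, Ms4a1, Pax5 and Ebf1 among those at 0. The 1 listed marker of thymic epithelium of 5, Epcam, was at 27.2 to 29.1 and 36.7 to 43. Dendritic cell markers (2 of 4, Itgax and Bst2, with Siglech and Flt3 at 0) summed to 145 to 160 and 169 to 171. Bst2 is also on the list of interferon-stimulated genes used below, so this sum is not particular to dendritic cells. Markers of natural killer and innate lymphoid cells (4 of 7, Klrb1c, Ncr1 and Gzmb at 0) summed to 219 to 237 and 210 to 216. Myeloid markers (3 of 7, Itgam, Adgre1, S100a9 and Cd14 at 0) overlapped, at 8.93 to 15.3 and 13.5 to 15.5. All of these lists but the myeloid one were apart between the genotypes, as the member totals were, and their part in the member results was not tested. Fewer cells of a type and less RNA per cell cannot be told apart in such bulk samples.

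Loci were then tested one by one on their summed start FPKM. Of 533 member loci with a start, 119 reached the level for a test (3 or more libraries with at least 1 FPKM), and 14 of them changed (limma, adjusted p under 0.05), or 11.8% of those tested. Of all 9260 loci tested, 13.9% were called, so the share among members was near that of all loci. Of the 119, 8 reached 1 FPKM in all 3 libraries of one genotype and in none of the other, so that they passed the filter only where they were high, and 4 of these were among the 14. Without such loci 10 of 111 members were called (9.01%), against 13.2% of all loci. The direction was uneven, with 12 members higher in cKO (10.1%, against 8.3% of all loci) and 2 lower (1.68%, against 5.57%). Without the loci that passed through 1 genotype, 9 of 111 members were higher and 1 lower, against 702 and 505 of 9119 over all loci. The groups did not overlap at 34 members, 27 of them higher in cKO and 7 lower. Over all loci tested that share was 38.8%, 23.1% higher and 15.6% lower. Tested members had a median log2 change of 0.25, 0.44 over the 53 on chromosomes and 0.05 over the 64 on patches or haplotypes, against 0.06 over all loci tested. Counted from ends, 97 members were tested and 8 were called, 6 higher (6.19%, against 8.07% of all loci tested by ends) and 2 lower (2.06%, against 6.12%). By ends the groups did not overlap at 23 members, 17 higher (17.5%, against 22.6%) and 6 lower (6.19%, against 16.7%), and 16 were under an unadjusted p of 0.05 (16.5%, against 31.7%). All 10 loci on chromosomes called by starts were higher in cKO, and of 3 on patches 1 was higher and 2 were lower. Among these, XLOC_000028, XLOC_021457, XLOC_044302 and the Nrbf2 copy passed the filter only through the genotype in which they were high. With libraries rescaled by trimmed means the split was 8 higher and 3 lower, the Ebna1bp2 locus on chromosome 4 being the added fall, and without cKO replicate 1, 2 or 3 the calls numbered 6, 6 and 7.

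**Figure D2:**
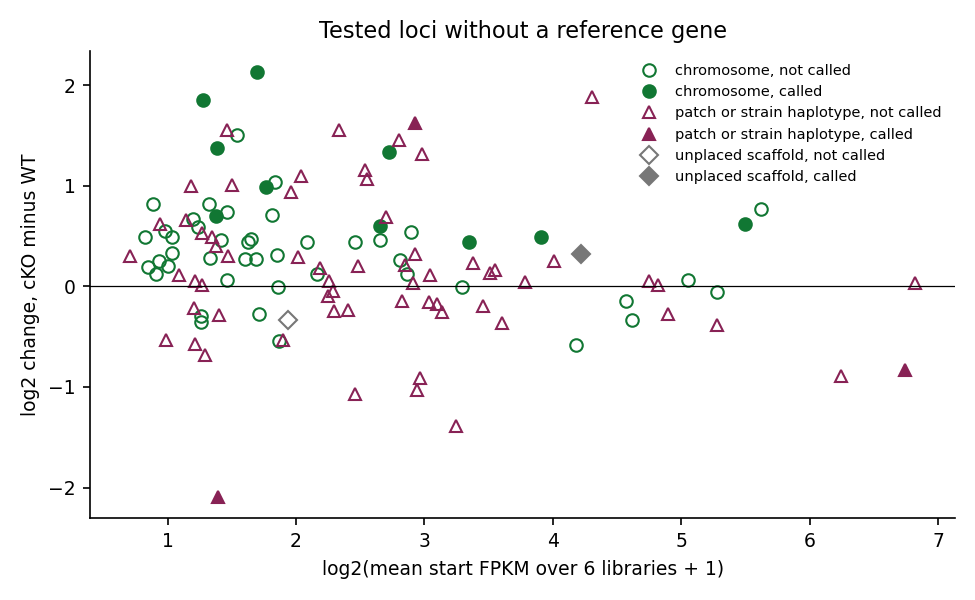
Log2 change (cKO minus WT) against the log2 of mean start FPKM plus 1 for the 119 tested loci without a reference gene, by kind of sequence, with filled symbols for the 14 called loci. Filled circles (chromosomes) all lie above 0, and the 2 filled symbols below 0 are both patch copies.

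**Figure D3:**
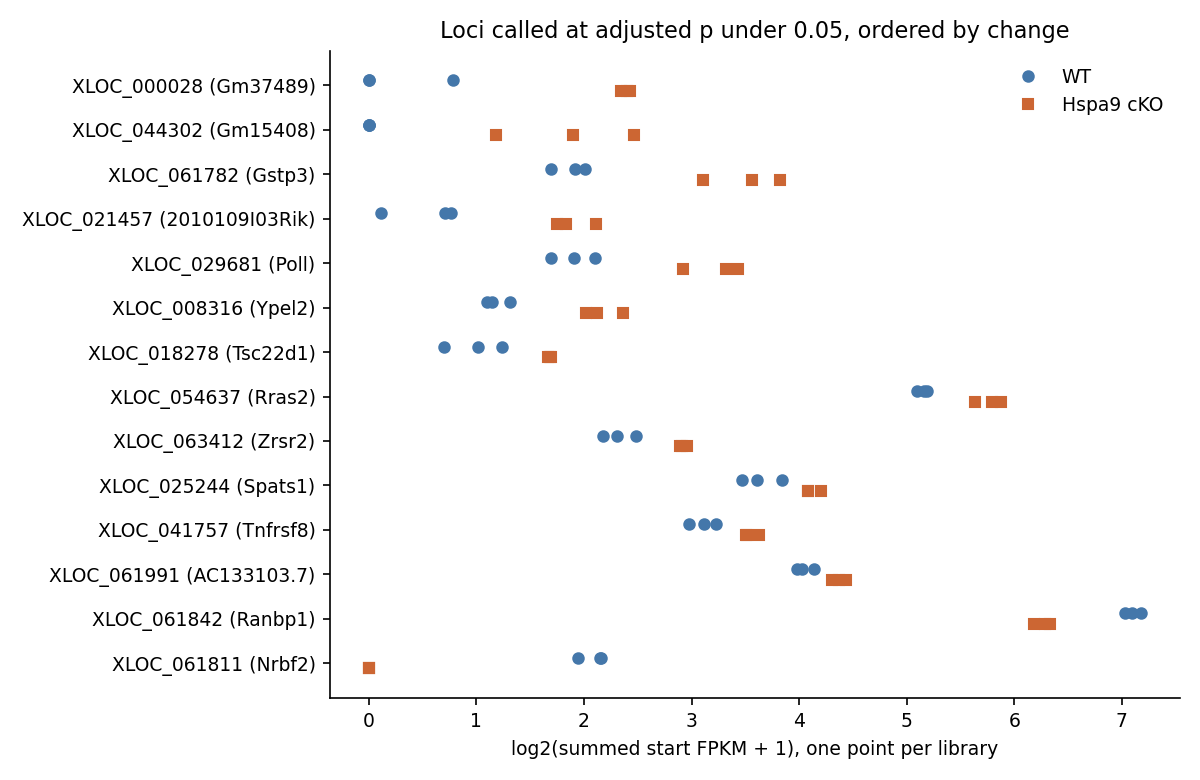
Summed start FPKM of the 14 called loci in each library, on a log2(FPKM + 1) axis, ordered by change, with the matched or nearest gene in brackets; circles are WT and squares Hspa9 cKO libraries. Libraries that did not list a locus are drawn at 0, and the groups are apart at all 14 loci.

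Rras2 encodes TC21, a small GTPase of the Ras family. Its locus (XLOC_054637, chr7:114050301-114139609, minus strand) had summed starts of 35.52, 34.81 and 33.27 FPKM in WT and 57.57, 54.51 and 48.81 in cKO. All cKO libraries were above all WT libraries, and the level rose by 0.62 ± 0.08 on the log2 scale (SE; limma, adjusted p = 0.00911). The start at the RefSeq position of Rras2 was itself higher, at 50.92, 43.89 and 48.81 FPKM in cKO against the WT values above (log2 change 0.46 ± 0.08; limma over all events, adjusted p = 0.046). That call was lost when libraries were rescaled (adjusted p = 0.0709 and 0.0682), with no filter (0.083) and without any 1 of the 6 libraries (0.0905 to 0.156). A start 21828 bases upstream was listed at 6.644 and 10.62 FPKM in cKO replicates 1 and 2 and was not listed in the other libraries. The annotated start was above all WT values in each cKO library, and the upstream start was listed in 2 of them.

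Tnfrsf8 encodes CD30, a receptor of the tumour necrosis factor receptor family. It fell outside the rule for named loci and was chosen after its values were seen. Its locus (XLOC_041757, chr4:145274283-145367349, minus strand) had 6.869, 8.392 and 7.662 FPKM in WT and 10.45, 10.35 and 11.33 in cKO, a rise of 0.44 ± 0.10 on the log2 scale (limma, adjusted p = 0.0374). The annotated start overlapped between the groups, at 6.869, 8.392 and 7.662 FPKM in WT and 7.12, 8.901 and 8.774 in cKO (log2 change 0.10 ± 0.13; limma, adjusted p = 0.722). A start 52185 bases upstream was listed in the cKO libraries alone, at 1.788, 1.448 and 0.9913 FPKM. Another, 45046 bases upstream, was listed at 1.542 and 1.568 FPKM in cKO replicates 1 and 3 alone. Most of the difference in the summed level thus lay at the upstream starts. It kept its call in 1 of the 6 fits that left out a library.

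**Figure D4:**
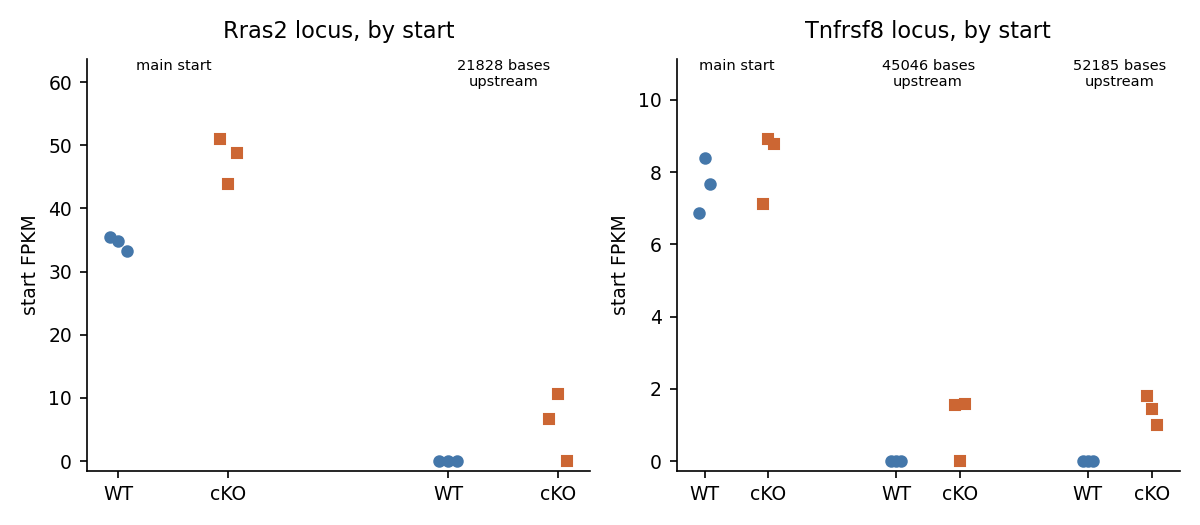
Start FPKM by library for each start of the Rras2 and Tnfrsf8 loci, with the distance upstream of the main start above each pair; circles are WT and squares Hspa9 cKO libraries. Libraries that did not list a start are drawn at 0. The main Rras2 start is higher in all cKO libraries, the main Tnfrsf8 start overlaps between the groups, and the upstream starts are listed in cKO only.

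The other called loci on chromosomes are given with the gene that they overlap or lie nearest to. XLOC_063412 (chrX:163958673-163976239, plus strand) begins 12 bases from the GENCODE start of Zrsr2, a component of the minor spliceosome, and runs away from it, over RefSeq's Gm38561. It had 4.585, 3.947 and 3.519 FPKM in WT and 6.532, 6.767 and 6.416 in cKO, with all cKO libraries higher (log2 change 0.60 ± 0.11, SE; limma, adjusted p = 0.0222). Its listed end overlapped between the groups, at 0.8241, 0.4614 and 1.752 FPKM in WT and 0.966, 1.074 and 1.237 in cKO. From that end the log2 change was 0.10 (limma on ends, adjusted p = 0.814). Zrsr2 itself overlapped between the groups, at 9.146, 8.577 and 8.233 FPKM in WT and 8.123, 6.886 and 9.475 in cKO. The difference between these neighbours in their response was not tested. Without WT replicate 2 or 3, or without any 1 of the cKO libraries, the call at XLOC_063412 was lost.

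XLOC_029681 (chr19:45542606-45547099, plus strand) lies 5176 bases from Poll, the gene of DNA polymerase lambda, and is transcribed from the opposite strand. It overlaps RefSeq's Gm19639 and Gm41856. Its starts summed to 2.749, 2.228 and 3.283 FPKM in WT and to 6.578, 8.983 and 9.789 in cKO, with the groups far apart, and it rose by 1.33 ± 0.18 (SE; limma, adjusted p = 0.00892). The values from its ends gave 1.19 (adjusted p = 0.0117). Poll was also higher in every cKO library, at 3.024, 2.926 and 3.329 FPKM against 1.932, 2.055 and 1.658. XLOC_008316 (chr11:86899011-86904552, plus strand), 31873 bases from Ypel2, had 1.136, 1.479 and 1.208 FPKM in WT and 3.347, 4.153 and 3.051 in cKO, a rise of 0.99 ± 0.14 (limma, adjusted p = 0.0104). Ypel2 went the other way, with 21.82, 23.37 and 22.91 FPKM in WT and 18.6, 17.3 and 18.89 in cKO.

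XLOC_000028 (chr1:7010508-7057785, plus strand) overlaps the pseudogene Gm37489. Its single start was listed at 0.7232 FPKM in WT replicate 1, was not listed in WT replicates 2 and 3, and was at 4.273, 4.38 and 4.065 in cKO (limma with no filter on level, adjusted p = 0.0087). An end at position 7047879 was listed in the cKO libraries alone, at 1.223, 1.119 and 1.337 FPKM. XLOC_021457 (chr15:74881614-74923680, minus strand) shares 2 of 8 exon edges with 2010109I03Rik and spans RefSeq's Ly6m, of the Ly6 family of surface proteins. It had 0.6932, 0.0825 and 0.6354 FPKM in WT and 3.334, 2.365 and 2.562 in cKO (limma with no filter, adjusted p = 0.0213). XLOC_044302 (chr5:149001438-149015462, plus strand), which shares 1 edge with Gm15408, was not listed in WT and was at 2.731, 4.515 and 1.269 FPKM in cKO (limma with no filter, adjusted p = 0.0265). These 3 loci passed the filter only through the cKO libraries, so the filtered test, which called them, is not used for them. XLOC_044302 lost the call without any 1 of the WT libraries, and without any 1 of the cKO libraries it fell below the filter. It also overlaps Gm15411, which lies on the opposite strand. Gm15411 was itself higher in every cKO library, at 1.012, 1.383 and 1.227 FPKM in WT and 2.749, 1.521 and 2.162 in cKO. Its part in the values of XLOC_044302 was not tested.

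XLOC_018278 (chr14:76342358-76354008, plus strand), 60953 bases from Tsc22d1, a regulator of transcription, had 1.021, 1.355 and 0.6234 FPKM in WT and 2.167, 2.225 and 2.211 in cKO (log2 change 0.70 ± 0.17, SE; limma, adjusted p = 0.045). XLOC_025244 (chr17:45487241-45492879, plus strand), with 28 events and 11826 bases from Spats1, had 13.31, 10.04 and 11.21 FPKM in WT and 17.41, 15.99 and 15.99 in cKO (0.49 ± 0.12; limma, adjusted p = 0.042). Its highest start event overlapped, at 13.31, 8.422 and 9.581 FPKM in WT and 12.61, 11.66 and 12.25 in cKO (limma over all events, adjusted p = 0.518). Another start event from the same position was at 1.082 ± 0.937 FPKM in WT and 4.013 ± 0.989 in cKO (SD; adjusted p = 0.164). From ends the locus was not called (limma on ends, adjusted p = 0.443). XLOC_018278 and XLOC_025244 both kept the call in 1 of the 6 fits without a library. With no filter neither was called (limma, adjusted p = 0.0572 and 0.0562). On an unplaced scaffold, XLOC_061991 had 16.62, 15.32 and 14.79 FPKM in WT and 18.82, 19.67 and 20.63 in cKO (0.32 ± 0.08; limma, adjusted p = 0.0494). It kept its call in 0 of the 6 fits without a library and was not called with no filter (limma, adjusted p = 0.0575). The loci for Rras2, Ranbp1 and Gstp3, XLOC_029681 and XLOC_008316 kept their calls in all 6.

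Some of the highest members did not pass the test. XLOC_026710 (chr17:84134837-84182922, minus strand), which shares 8 of 22 exon edges with the long noncoding RNA AC132455.2, had 27.94, 32.05 and 47.8 FPKM in WT and 62.06, 68.68 and 51.35 in cKO, so the groups did not overlap (0.77 ± 0.22, SE; limma, adjusted p = 0.0676, and 0.0276 without WT replicate 3). Its 1 listed end was low, at 0.8478, 1.805 and 2.17 FPKM in WT and 3.583 in cKO replicate 2, and was not listed in cKO replicates 1 and 3. From that end XLOC_026710 had a log2 change of the opposite sign, -0.61 (limma on ends, adjusted p = 0.563). Its retained-intron event was at 17.52, 16.03 and 11.3 FPKM in cKO, against 6.049 in WT replicate 2 and 8.398 in WT replicate 3, and WT replicate 1 did not list it (limma, adjusted p = 0.279). The Ebna1bp2 locus had 27.31, 23.63 and 27.86 FPKM in WT and 19.5, 20.05 and 22.51 in cKO, lower in every cKO library (limma, adjusted p = 0.0781). The Kat14 locus overlapped between the groups, at 23.55, 21.71 and 26.3 FPKM in WT and 17.17, 24.27 and 23.28 in cKO. XLOC_027475 on chromosome 18, the locus with the most events (33), overlapped at 36.43, 31.72 and 47.86 FPKM in WT and 33.51, 35.2 and 41.55 in cKO, and so did XLOC_029257 on chromosome 19, with 30.18, 33.41 and 30.37 FPKM in WT and 35.82, 35.81 and 27.08 in cKO.

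The patch and haplotype loci were mostly second copies of annotated genes. Their exon edges matched an annotated gene at 71 of 118 loci, for 70 genes, 68 of these loci being protein coding, and 377 of the 421 edges in matched loci fell on an edge of that gene. At 44 loci the edges had the chromosome's own coordinates. The match rested on at least 4 edges at 40 of the 71 loci, and on the weaker rule of at least 2 edges at the others. Among the latter, Ranbp1, Ndufs3, Arf4 and Cdk2ap2 rest on 2 of 2 edges, and Gstp1 and Ide on 2 of 3. For 61 loci the starts of both copies were listed with a summed mean of at least 1 FPKM. The patch copy then held a median of 46% of the gene's start FPKM, from 2.85% (Foxp4) to 99.3% (Ndufs3), and more than 50% at 28 genes. Because the authors' processing could divide reads between near-identical copies, the level of either copy alone is uncertain, and for the genes whose levels are described the sum of both copies is given beside it.

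Ranbp1, which helps the GTPase Ran cycle in nuclear transport, was the highest called member. Its patch copy (XLOC_061842, a patch of chromosome 16) was at 135.8, 129.8 and 143.9 FPKM in WT and 71.62, 77.24 and 79.68 in cKO, and it fell by 0.83 on the log2 scale (-0.83 ± 0.07, SE; limma, adjusted p = 0.00304). The chromosome copy was at 65.01, 79.21 and 87.27 in WT and 42.52, 46.6 and 43.77 in cKO. Both copies were lower in every cKO library, and their sum fell from 214 ± 15.7 to 120 ± 5.49 FPKM (SD, n = 3; log2 change -0.82 ± 0.08, SE; limma on summed copies, adjusted p = 0.00368). Trmt2a, which starts beside Ranbp1 on the opposite strand and also has a patch copy (XLOC_061836), overlapped between the groups, at 9.431, 8.557 and 7.622 FPKM in WT and 8.472, 12.52 and 9.792 in cKO on the patch, with sums of 14.5 ± 3.99 and 14.9 ± 1.22 (SD).

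Gstp3 encodes a glutathione S-transferase of the pi class. Its patch copy (XLOC_061782, a patch of chromosome 19) was at 3.037, 2.225 and 2.764 FPKM in WT and 10.78, 7.616 and 13.11 in cKO, a rise of 1.62 ± 0.20 on the log2 scale (SE; limma, adjusted p = 0.0072). The chromosome copy was at 2.887, 1.28 and 2.452 in WT and 4.596, 6.286 and 5.347 in cKO. The sum of both rose from 4.88 ± 1.24 to 15.9 ± 2.32 FPKM (SD, n = 3; log2 change 1.54 ± 0.19, SE; limma on summed copies, adjusted p = 0.00701). Gstp1, a paralog whose copy on the same patch was the highest of all members by mean, overlapped between the groups, at 106.6, 93.01 and 135.4 FPKM in WT and 117.5, 122.5 and 98.85 in cKO (limma, adjusted p = 0.927), and so did the sum of its copies (151 ± 25.7 against 146 ± 12.6, SD). Reads of the pi-class paralogs could also have been divided between them.

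Nrbf2, a subunit of the lipid kinase complex that acts in autophagy, differed on the patch copy but not on the sum of both. That copy (XLOC_061811, a patch of chromosome 10) was at 2.856, 3.427 and 3.479 FPKM in WT and was not listed in any cKO library, and it passed the filter only through the WT libraries (limma with no filter, adjusted p = 0.00173). The chromosome copy was at 3.108 FPKM in WT replicate 1, was not listed in WT replicates 2 and 3, and was at 3.241, 3.114 and 3.452 in cKO. In WT replicates 2 and 3 the gene was thus listed on the patch alone, and in the cKO libraries on the chromosome alone. The sum of both copies overlapped between the groups, at 4.29 ± 1.45 and 3.27 ± 0.171 FPKM (SD, n = 3), and was not called (log2 change -0.28 ± 0.20, SE; limma on summed copies, adjusted p = 0.392).

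**Figure D5:**
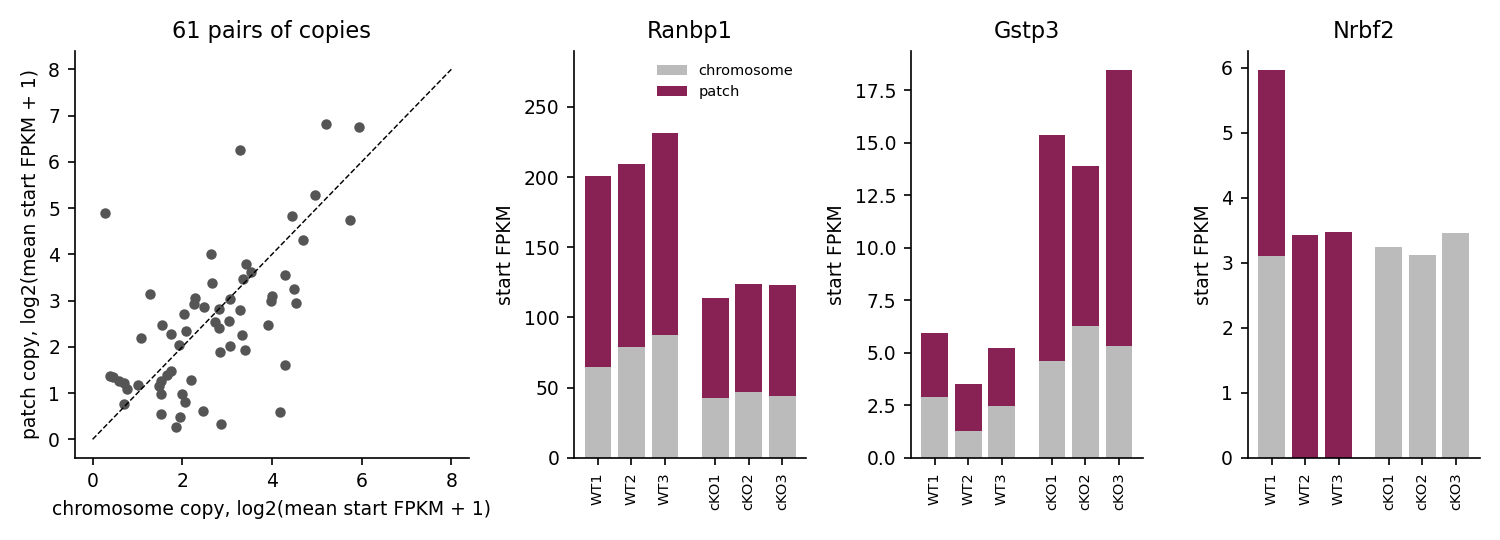
Left, mean start FPKM of the patch copy against that of the chromosome copy for 61 pairs, both as log2(FPKM + 1), with a dashed line of equality; right, start FPKM of both copies stacked by library for Ranbp1, Gstp3 and Nrbf2. For Ranbp1 both copies are lower in cKO, for Gstp3 both are higher, and for Nrbf2 the FPKM is on the patch in WT replicates 2 and 3 and on the chromosome in the cKO libraries.

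Over the 61 pairs, the groups did not overlap for 10 patch copies (7 higher and 3 lower in cKO), for 15 chromosome copies and for 12 sums (5 higher and 7 lower), beside 38.8% of all loci tested. Other high patch copies varied within a group. Arf4, a small GTPase of Golgi traffic, was at 17.25 FPKM in cKO replicate 1 and between 39.5 and 43.49 in the other 5 libraries (limma, adjusted p = 0.499). Its sums overlapped (72.4 ± 1.82 against 62.9 ± 14.3, SD). Ide, the insulin-degrading enzyme, was at 16.78 FPKM in the same library, at 70.18 and 89.81 in the other cKO libraries and at 99.25, 68.87 and 104 in WT (adjusted p = 0.373), with overlapping sums (99.5 ± 18.2 against 67.6 ± 37, SD). The Ide match rests on 2 of 3 edges. Cdk2ap2 was not listed in WT replicate 3, was at 18.68 and 17.19 FPKM in the other WT libraries and at 22.13, 32.87 and 21.74 in cKO, all of them higher than in WT (adjusted p = 0.321), while its sums overlapped (35.4 ± 13 against 51.6 ± 11.6, SD).

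Ndufs3, a subunit of mitochondrial complex I, had almost all of its start FPKM on the patch, with 27.46, 28.84 and 39.31 FPKM in WT and 26.57, 24.32 and 26.5 in cKO. The cKO libraries were all lower, but the difference did not pass the test (log2 change -0.28 ± 0.14, SE; limma, adjusted p = 0.248). The sum of both copies was likewise lower in every cKO library (32 ± 6.46 against 26.1 ± 1.13, SD; limma on summed copies, adjusted p = 0.252). Of its end FPKM the patch held 76.13% ± 3.27 in WT and 74.62% ± 2.79 in cKO (SD, n = 3), the rest being on the chromosome. The patch copies of Zdhhc8, a palmitoyltransferase, and Sf1, which binds the intron branch point, overlapped between the groups, at 25.03, 25.75 and 30.55 FPKM in WT and 27.4, 25.8 and 28.6 in cKO, and at 23.76, 26.43 and 25.51 in WT and 31.59, 23.67 and 24.02 in cKO (adjusted p = 0.95 and 0.808). The sum for Zdhhc8 overlapped as well (48.4 ± 4.24 against 47.7 ± 1.77, SD). For Sf1 the chromosome copy (55.8 ± 0.863 against 48.8 ± 4.54) and the sum (81.1 ± 0.741 against 75.2 ± 5.68) were lower in every cKO library, and the sum did not pass the test (limma on summed copies, adjusted p = 0.381).

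Of the 373 loci that overlapped no GENCODE gene, 128 ran away from a nearest gene on the opposite strand, 81 ran towards one and 164 lay on the nearest gene's strand. Some of these loci may overlap a RefSeq gene. The orientations rest on the assigned strand, and no source used here says whether strand was used in the counting. At 50 of the divergent loci the starts were within 1000 bases of each other, with a median of 121 bases, and 39 of these neighbours were protein coding. They were low, with a median of 0.12 FPKM, and 3 could be tested, of which 1, beside Zrsr2, was called. The locus beside Dock2, a Rac activator of lymphocytes, with starts 49 bases apart, was at 1.383, 2.129 and 2.295 FPKM in WT and 2.931, 2.207 and 2.405 in cKO (limma, adjusted p = 0.337). Below the test's level, the locus 195 bases from Dusp2, a phosphatase of MAP kinases, was not listed in WT and was at 2.001, 0.8803 and 1.332 FPKM in cKO. It was chosen after its values were seen.

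The genes nearest to members were also compared with lists of T cell and other genes, without a share over all genes beside the counts. The nearest gene was a T cell receptor segment for 3 loci, an MHC gene for 1, a DN3 gene for 3, and an interferon-stimulated gene, a stress-response gene or a host of small RNAs for 0. None of these 7 loci reached the test. The locus 819 bases from Il2ra, which encodes CD25, appeared in a single library, WT replicate 3, with 1.642 FPKM, and so did the one 232 bases from Trdv5, with 0.8895. The locus beside Trav9-4 was listed in cKO replicate 1 alone, at 0.6133 FPKM. The locus 3071 bases from Cd2 was at 0.7792 FPKM in WT replicate 2 and at 0.3789 in cKO replicate 3 and was not listed elsewhere.

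Single events were tested over the whole of the tables. Of the 423 members that reached the same level, 18 were called (limma, adjusted p under 0.05), or 4.26%, against 4.21% of all 57237 events tested, so the members' share was close to that of all events. Of the 18, 8 passed the filter only through the genotype in which they were high. Without such events 10 of 402 members were called (2.49%), against 3.5% of all events. Of the 18, 12 were higher in cKO (2.84% of those tested, against 2.45% of all events) and 6 lower (1.42%, against 1.76%). Without events that passed through 1 genotype, 8 of 402 members were higher and 2 lower, against 1102 and 860 of 56111 over all events. The groups did not overlap at 110 members (26%, against 29.8% of all events), 89 of them higher in cKO (21%, against 18.6%) and 21 lower (4.96%, against 11.2%). Without WT replicate 1, 2 or 3 the calls numbered 3, 5 and 7, and without cKO replicate 1, 2 or 3 they numbered 0, 2 and 2 (limma; 44 of 343 members were under an unadjusted p of 0.05 without cKO replicate 1). They came from 7 loci, 6 of them from the Gstp3 patch copy, 4 from Nrbf2, 2 each from Ranbp1, Rras2 and XLOC_008316, and 1 each from XLOC_000028 and XLOC_029681. Events of a locus share its transcripts and are not independent. The Gstp3 events included a retained intron, at 0.4072 FPKM in WT replicate 1, not listed in the other WT libraries and at 1.736, 1.757 and 2.409 in cKO. The spliced form of the same intron was at 0.9885, 1.783 and 1.651 FPKM in WT and 4.744, 2.929 and 4.336 in cKO, so both forms were higher in every cKO library.

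Among the event types with fewer members, the highest of each rarely differed. The highest member that skips several exons (XLOC_025244) overlapped, at 7.008, 6.228 and 4.81 FPKM in WT and 6.902, 8.195 and 6.351 in cKO. Retention of several introns in the patch copy of Sf1 was listed in WT replicate 3 alone among WT libraries, at 2.466 FPKM, and in all cKO libraries, at 5.252, 5.36 and 4.356 (limma, adjusted p = 0.114). A skipped exon with variant edges in XLOC_008315 on chromosome 11 was lower in every cKO library, at 9.53, 8.293 and 16.88 FPKM in WT and 4.286, 6.092 and 6.151 in cKO (adjusted p = 0.159).

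Of the 25 members listed in all libraries of one genotype and none of the other, 6 reached the level for a test, which they could do only through that genotype: 4 in the Nrbf2 patch copy, the start of XLOC_044302 and an end of XLOC_000028. The other 19 were too low for the test. Among them were the upstream Tnfrsf8 start, the Dusp2 neighbour, and a start and an included exon of the patch copy of Efcab7, at 0.5685 to 1.245 FPKM in cKO. An end of the patch copy of Lmbrd2 was listed in WT alone, at 0.7495, 0.8793 and 0.548 FPKM. The ends of its chromosome copy were listed in every library, at 0.8559, 0.7275 and 0.6115 in WT and 1.15, 1.207 and 0.9152 in cKO. The summed starts of both copies overlapped between the groups for Efcab7 (0.595 ± 0.411 against 1.3 ± 0.636 FPKM, SD) and for Lmbrd2 (1.62 ± 0.939 against 1.04 ± 0.301).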

How the data were processed

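RNA of sorted DN3 thymocytes from 3 WT and 3 Hspa9 cKO libraries was sequenced. The labels' protocols name both poly(A) isolation and rRNA removal, random priming and 13 cycles of PCR. Per the submitters' processing notes, cutadapt 1.9.1 and the mouse build mm10 were used. No source used here gives the aligner, assembler, event caller or annotation. The authors deposited 1 table of events per library, with each event's level in FPKM, and no counts, so depth is unknown and its precision cannot be given.

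Groups followed the sample titles. A locus was the set of events with 1 assembled gene identifier, and its level the summed FPKM of its start events. Features with at least 1 FPKM in 3 or more libraries entered a fit by limma 3.58.1 (R 4.3.3; trended, robust, two-sided) to log2(FPKM + 1), over the whole of the tables, with Benjamini-Hochberg adjustment. Log2 changes on this scale understate the change of low features. The procedure was tested on simulated data. Totals per library were compared by exact two-sided permutation tests. Other steps used Python 3.11.15, pandas 2.3.3 and numpy 2.4.6.

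Chromosome positions were compared with GENCODE M21 and RefSeq GRCm38.p6, which have the coordinates of mm10. Patch and haplotype loci were matched to a gene by the offset of their exon edges, at a single offset of at most 3000000 bases, with at least 4 edges, or with at least 2 at an offset within 1000 bases of 0 or of one already found for that patch. That rule, the sum over both copies and the counts without features that passed the filter through 1 genotype alone were chosen after seeing the data. The members and lists were chosen with earlier results of these data known.

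Loci named were the 15 highest, the called ones up to 10 in each direction by size of change with a mean of at least 1 FPKM and groups apart, and the 5 highest without starts. Events named were the highest of each type and the 10 called with the largest change in each direction. On each list of neighbouring genes the 2 highest were named. Alternatives were a block on the replicate number, other filters, a pseudocount of 0.1, rescaled libraries, ends in place of starts, and leaving out each library. Repeats were not analysed here, and some items that these rules would name are not reported here.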

Additional observations from a re-analysis of the deposited data

How the results depend on the processing

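The higher number and start share of members in cKO kept their direction under the alternatives planned for each, with differences of 126 to 162 events and of 0.0372 to 0.0579 percentage points when 1 library was left out. The end share over events at 1 FPKM or more in 3 libraries turned, from 0.4313% in WT to 0.4298% in cKO (exact permutation p = 0.9). The 14 called loci became 8 with a filter at 5 FPKM, 8 when counted from ends, 6 to 11 without 1 library and 14 with both copies summed, a setting chosen after seeing the data. The 14 with summed copies were not the same loci. Nrbf2 was then not called (limma on summed copies, adjusted p = 0.392), while Ppp2r5b was (1.53 ± 0.279 FPKM in WT against 3.06 ± 0.478 in cKO, SD; adjusted p = 0.0346). The 18 called events became 7 with no filter, 8 with a filter at 5 FPKM and 0 to 7 without 1 library. Rescaling moved the median log2 change of all loci from 0.06 to 0.00 or 0.01. Results called on all 6 libraries kept their sign in every alternative in which they were tested, but 13 of the uncalled ones given here changed sign, all at an adjusted p of 0.312 or more (limma). From ends, the log2 change of XLOC_026710, whose listed end was low and in 1 cKO library only, was -0.61 and that of XLOC_029257 -0.26. With trimmed means and with median ratios the Gstp1 copy was at -0.04 and -0.03, its start event at -0.01 and -0.00, its end event at -0.03 and -0.02, the Zdhhc8 copy at -0.05 and -0.04, and the Sf1 copy at -0.01 and -0.00, and with trimmed means XLOC_029257 was at -0.00. With both copies summed Gstp1 was at -0.04, Zdhhc8 at -0.02 and Sf1 at -0.11. Without 1 library the Gstp1 copy ranged from -0.09 to 0.17, its start event from -0.02 to 0.17, its end event from -0.01 to 0.16, the Zdhhc8 copy from -0.04 to 0.10, the Sf1 copy from -0.08 to 0.12, its highest included-exon and spliced-introns events from -0.34 to 0.01, Arf4 from -0.61 to 0.04, XLOC_027475 from -0.19 to 0.10, XLOC_029257 from -0.01 to 0.19, and 2 events of XLOC_061889 from -0.98 to 0.14 and from -0.07 to 0.24. The causes were not tested. XLOC_000028, XLOC_021457, XLOC_044302 and the Nrbf2 copy were not tested when a library of their high group was left out. They then fell below the filter. Depth is unknown, so it cannot be said how much of the irregular listing of low members is due to it.

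With the replicate number as a block, 7 loci and 0 events were called (limma; 57 of 423 events were under an unadjusted p of 0.05, and the lowest adjusted p was 0.108). Libraries with the same number did not deviate together, with correlations of -0.024, 0.022 and 0.003 over events and 0.021, 0.003 and 0.003 over loci, and not every library correlated best with its own number, so the numbers were not taken as a pairing.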
